A study of Saccharomyces cerevisiae with 8 samples.

Results

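Haploid budding yeast, Saccharomyces cerevisiae, mates by exchanging peptide pheromones. A cell of mating type a secretes a-factor and carries the receptor for alpha-factor, and a cell of mating type alpha does the reverse. A bound receptor frees the beta and gamma subunits of a G protein, which start a kinase cascade held on the scaffold Ste5, and the last kinase releases the transcription factor Ste12 from its inhibitors Dig1 and Dig2. Ste12 then raises genes for arrest of the cell cycle, adhesion and cell fusion. The transcripts of 40 genes of this pathway are described here: pheromones and receptors, the signalling proteins, Ste12 and its partners, and targets. They were chosen by name, with earlier results of these data known. Each was read from 1 probe set of its own, out of 5449 genes measured.

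RNA came from 4 cultures expressing Kir2.1, a potassium channel from mammals that passes current mainly inward, from the plasmid pRS416TEF-Kir2.1-HA, and from 4 vector control cultures with pRSGPD426. All grew at 26 °C in selective medium to mid log phase, and each culture was hybridised to 1 Affymetrix array. The plasmids are not the same but for the channel, and only the controls carry a re-analysis mark, so neither of these differences can be told apart from the effect of Kir2.1. The labels name no strain, mating type or age of culture. Levels are given on a log2 scale rebuilt from the deposited standardized scores, with the median gene of each array at 0. A difference is the Kir2.1 mean minus that of the vector control.

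The background of an array is the 95th percentile of 1746 probe sets taken as those of fission yeast, S. pombe, and lay between -1.89 and -1.55. They were taken as such because their annotated gene is absent from the RefSeq list of S. cerevisiae, and no organism label was checked. Arrays did not fall together by group. Over the 5449 genes, the deviations of vector control replicate 1 from the 8-array mean correlated at 0.67 and 0.78 with those of Kir2.1 replicates 1 and 3, and at -0.61 to -0.69 with the other controls. Kir2.1 replicate 2 correlated at 0.67 to 0.75 with vector control replicates 2 to 4. Kir2.1 replicate 4 correlated at -0.23, 0.00038 and -0.48 with Kir2.1 replicates 1, 2 and 3. These are correlations across genes, which are not independent replicates. For some of the genes, results that rest on these arrays are given with and without them.

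The cultures showed the transcripts of mating type alpha. All 4 measured members that alpha cells make lay above the background on all 8 arrays, and so did AFB1, a further alpha-specific gene. Of the 7 a-specific genes, 5 lay within the background on all 8 arrays, STE6 lay above it on 2 arrays, and MFA1 on 8. The probe set for the alpha1 gene, an activator of alpha-specific genes, is shared between copies of the mating-type locus and is named HMLALPHA1. It stood at 1.04 to 1.45 in the Kir2.1 arrays and at 0.91 to 1.22 in the controls, above the background on all 8. Another shared probe set of the locus, named HMRA2, stood at 0.84 to 1.30 in the Kir2.1 arrays and at 0.89 to 1.03 in the controls, above the background on all 8. Which copy of the locus these shared probe sets read cannot be told apart, and that of HMRA2 may also read the alpha2 gene, which shares sequence with it. HMRA1, whose protein helps shut off haploid genes in a/alpha diploids, lay within the background on all 8. Of 11 genes that such diploids repress, among them GPA1, STE4, FUS3, FAR1 and HO, 10 lay above the background on all 8 arrays. The other was NEJ1, above it on 4. Of 4 meiosis genes that haploids keep low, none was above the background on all 8 arrays. IME1 was above it on 4 arrays and IME2 on 2, and SPO11 and SPO13 on 0. The log2 of the summed level of the 5 alpha-specific genes ranged from 4.91 to 5.45 over the Kir2.1 arrays and from 4.87 to 5.25 over the controls. For the 7 a-specific genes it ranged from 0.69 to 1.09 over the Kir2.1 arrays and from 0.63 to 0.81 over the controls, so both groups carried the same mating type.

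**Figure D1:**
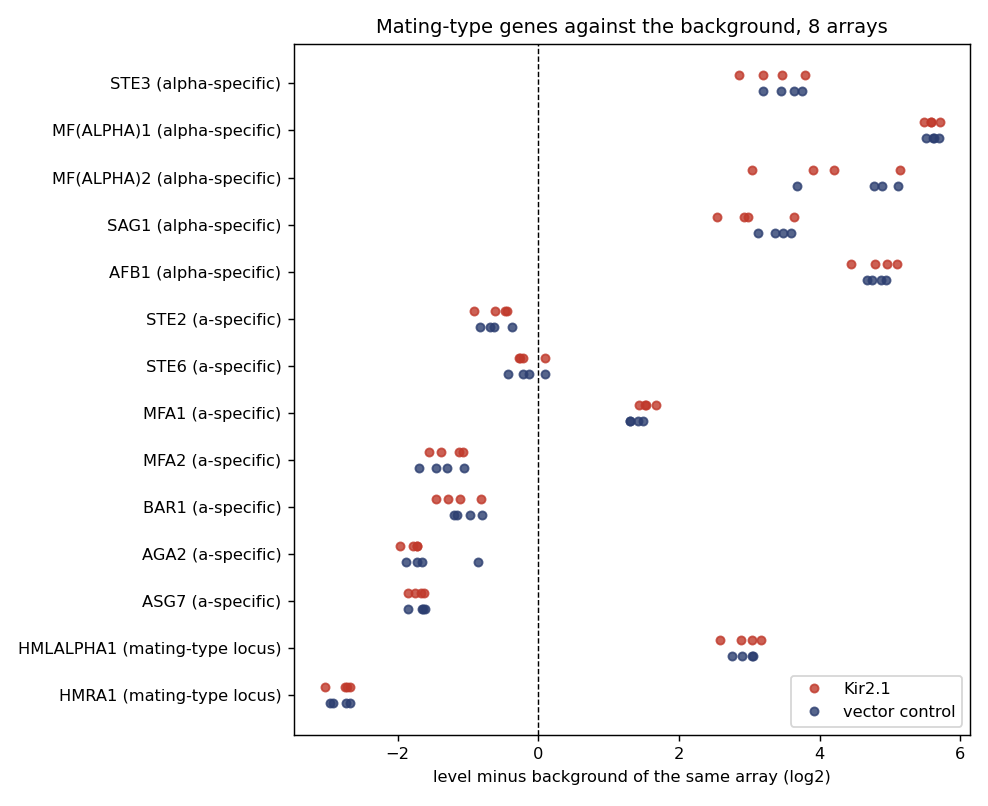
Level minus the background of the same array (log2, horizontal axis) for alpha-specific genes, a-specific genes and the alpha1 and a1 genes of the mating-type locus, with 1 point for each array, Kir2.1 above vector control in each row. All points of the 5 alpha-specific genes lie right of the dashed background line, and of the a-specific genes only MFA1 lies right of it on all 8 arrays.

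No gene of the pathway passed the test between groups. limma called 0 of the 40 higher and 0 lower at an adjusted p under 0.05, as for all 5449 genes (0% in each direction), and the smallest adjusted p among the 40 was 0.551. At an unadjusted p under 0.05 there were 3 of the 40, against 8.35% of all genes. These were MFA1 on the higher side, where 6.37% of all genes stood, and STE12 and DIG1 on the lower side, with 1.98% of all genes. An unmoderated test also called 0 genes and gave 4 of the 40 at an unadjusted p under 0.05, against 9.62% of all genes. All 4 Kir2.1 values lay outside the range of all 4 control values for 3 of the 40, MFA1, ASG7 and DIG1, against 6.59% of all genes, so this share is near the background. MFA1 and ASG7 lay on the upper side, with 5.05% of all genes, and DIG1 on the lower, with 1.54%. The median difference of the 40 was -0.04 (17 with a higher and 23 with a lower mean), against 0.03 over all genes, of which 58.7% had a higher and 41.3% a lower mean. The differences of the 40 ranged from -0.41 to 0.42. The 95% interval of 39 of them lay within 2-fold in either direction, near the 97.4% of all genes. The exception was MF(ALPHA)2. Among the 26 members above the background on all 8 arrays, 25 had such an interval, against 97.9% of all genes above it. For the 10 members within the background on all 8 arrays, the interval describes background signal and does not bound the transcript.

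**Figure D2:**
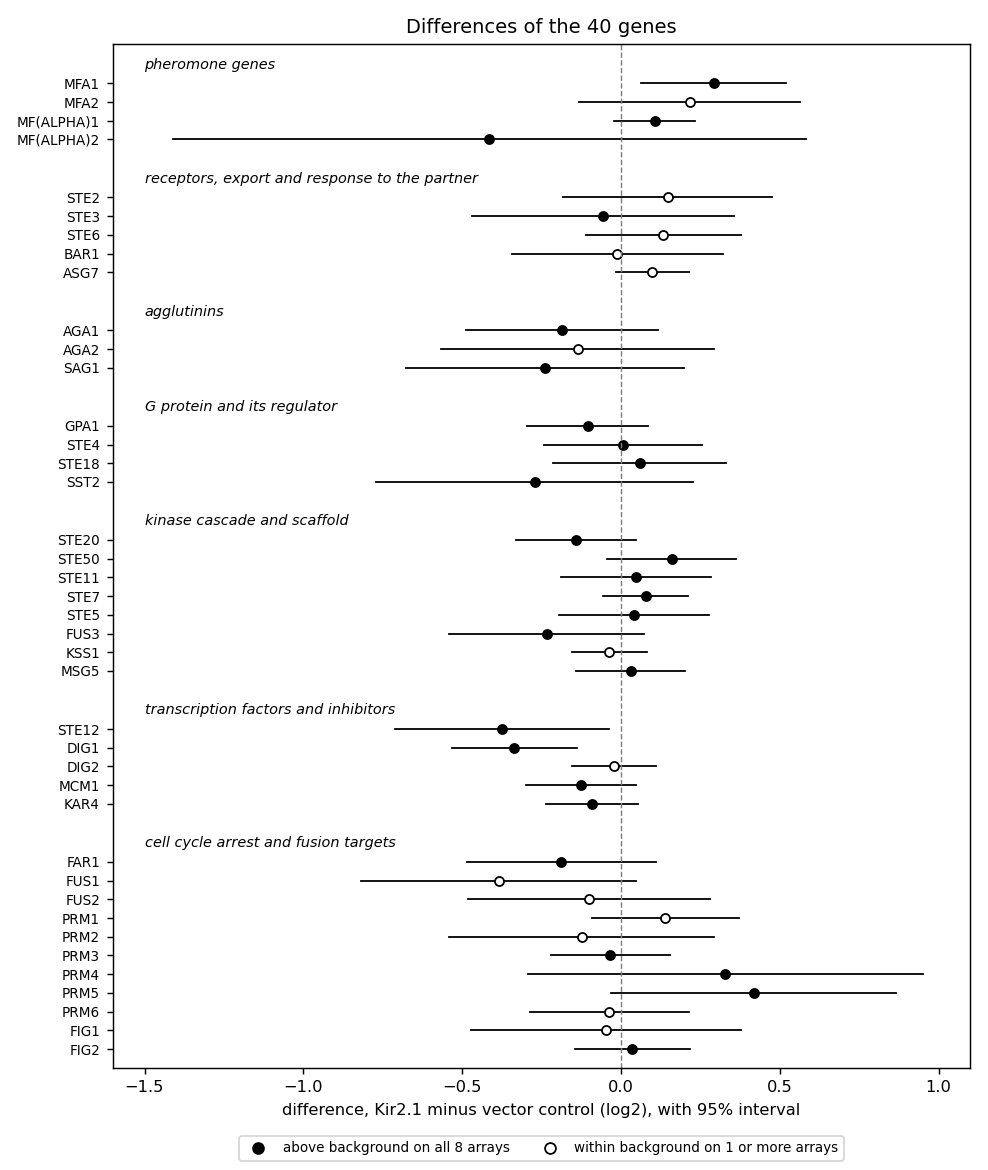
Difference between Kir2.1 and vector control (log2, horizontal axis) with its 95% interval from limma for each of the 40 genes, grouped by role, with open points for genes within the background on 1 or more arrays. Among the genes above the background on all 8 arrays, the intervals of MFA1, STE12 and DIG1 leave out 0 before adjustment.

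The signals of the 2 genes for alpha-factor differed in how much they varied. MF(ALPHA)1 (YPL187W), the main source of the peptide, stood at 3.83, 3.98, 3.94 and 3.86 in Kir2.1 replicates 1 to 4, against 3.77, 3.81, 3.78 and 3.83 in vector control replicates 1 to 4. Its values spanned 0.21 over the 8 arrays, and 0.098 after quantile normalization. They were the brightest of the 40 genes, and whether signal near the top of the scale narrowed their span was not tested. The groups overlapped only at Kir2.1 replicate 1 and vector control replicate 4, and the difference was 0.11 (SE 0.06, limma adjusted p = 0.660). Its sign is not settled, as the difference was -0.030 after quantile normalization and -0.023 with no centring. MF(ALPHA)2 (YGL089C), a second gene for the same pheromone, stood at 2.15, 3.41, 1.48 and 2.49 in the Kir2.1 arrays, against 1.83, 3.22, 3.04 and 3.10 in the controls. Those values span 1.93, or 3.80-fold, and 1.83 after quantile normalization. The low values belong to both groups: Kir2.1 replicates 1 and 3 and vector control replicate 1 were the 3 lowest, and Kir2.1 replicate 2 was the highest of all. The means were 2.38 ± 0.80 in Kir2.1 and 2.80 ± 0.65 in control arrays (SD, n = 4 each), with a difference of -0.41 (95% interval -1.41 to 0.58, limma adjusted p = 0.770). Its difference, named after its values were seen, turned on single arrays: it was -0.76 without Kir2.1 replicate 2, -0.74 without vector control replicate 1, -0.27 without vector control replicate 2 and -0.11 without Kir2.1 replicate 3. The coding sequences of the 2 genes are similar, so some cross-hybridisation between their probe sets cannot be told apart from signal of their own.

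MFA1 (YDR461W), which codes for the a-factor precursor and is known as an a-specific gene, was the exception in its class. Its levels were -0.24, -0.19, 0.12 and -0.29 in the Kir2.1 arrays, against -0.37, -0.59, -0.43 and -0.38 in the controls. Each Kir2.1 array was thus higher than every control array. The difference of 0.29 (SE 0.10, unadjusted p = 0.0184) missed the threshold over all genes (limma adjusted p = 0.551). It ran from 0.20 to 0.34 when single arrays were left out, and was 0.16 with no centring, where the groups overlapped. Measured from the background of the same array, Kir2.1 replicate 4 (1.43) lay below vector control replicate 1 (1.48). MFA2 (YNL145W), the other a-factor gene, ranged from -3.28 to -2.68 in the Kir2.1 arrays and from -3.37 to -2.90 in the controls, all within the background.

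The receptor and the adhesion protein of alpha cells also had low values in both groups. STE3 (YKL178C), the receptor for a-factor, stood at 1.44, 2.06, 1.30 and 1.75 in the Kir2.1 arrays and at 1.35, 1.74, 1.91 and 1.78 in the controls. Its 3 lowest arrays were those of MF(ALPHA)2, and the means of 1.64 ± 0.34 in Kir2.1 and 1.69 ± 0.24 in control arrays (SD, n = 4 each) lay closer than the spread within either group. SAG1 (YJR004C), the agglutinin on the surface of alpha cells, stood at 1.22, 1.90, 0.99 and 1.21 in the Kir2.1 arrays and at 1.27, 1.70, 1.63 and 1.69 in the controls. The SAG1 difference, named after its values were seen, was -0.24 (SE 0.19, limma adjusted p = 0.716), -0.43 without Kir2.1 replicate 2, -0.13 without Kir2.1 replicate 3 and -0.37 with no centring. Kir2.1 replicate 2 was the highest array for both genes, and vector control replicate 1 was the lowest control for both. AGA1 (YNR044W), the anchor subunit of the a-agglutinin, stood at -0.75, -0.44, -0.89 and -1.14 in the Kir2.1 arrays and at -0.61, -0.66, -0.63 and -0.57 in the controls. Its SD was 0.29 in the Kir2.1 arrays and 0.04 in the controls, and Kir2.1 replicate 2 lay above all controls while the other 3 Kir2.1 arrays lay below them.

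The genes that alpha cells are known to keep off stayed dim. STE2, the alpha-factor receptor, ranged from -2.64 to -2.02 in the Kir2.1 arrays and from -2.68 to -2.22 in the controls. STE6 (YKL209C), the exporter of a-factor, ranged from -2.01 to -1.66 in the Kir2.1 arrays and from -2.10 to -1.75 in the controls, and passed the background on 1 array of each group. BAR1, the protease that degrades alpha-factor, ranged from -3.18 to -2.57 in the Kir2.1 arrays and from -3.04 to -2.65 in the controls. AGA2, the binding subunit of the a-agglutinin, lay between -3.68 and -3.27 in the Kir2.1 arrays and between -3.58 and -2.75 in the controls. ASG7 (YJL170C), whose protein lowers signalling in new zygotes, lay between -3.47 and -3.35 in the Kir2.1 arrays and between -3.53 and -3.49 in the controls. The groups of ASG7 did not overlap, but both lay within the background, so no fold is given for it.

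The subunits of the G protein lay above the background on all 8 arrays. STE4, the beta subunit, ranged from 0.75 to 1.16 in the Kir2.1 arrays and from 0.79 to 1.12 in the controls. STE18, the gamma subunit, ranged from -0.10 to 0.43 in the Kir2.1 arrays and from -0.06 to 0.12 in the controls. GPA1, the alpha subunit that holds the other 2 back, ranged from -0.44 to -0.09 in the Kir2.1 arrays and from -0.27 to -0.15 in the controls. SST2 (YLR452C), which speeds the return of Gpa1 to its resting state and is itself a pheromone target, stood at -1.33, -0.58, -1.55 and -1.30 in the Kir2.1 arrays, against -1.35, -0.76, -0.78 and -0.79 in the controls. Vector control replicate 1 lay among the 3 low Kir2.1 arrays, and Kir2.1 replicate 2 lay above every control. The SST2 means were -1.19 ± 0.42 in Kir2.1 and -0.92 ± 0.29 in control arrays (SD, n = 4 each), with a difference of -0.27 (SE 0.22, limma adjusted p = 0.716), named after its values were seen. It was -0.47 without Kir2.1 replicate 2, -0.42 without vector control replicate 1 and -0.15 without Kir2.1 replicate 3.

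Of the 8 kinase, scaffold and phosphatase genes, 7 lay above the background on all 8 arrays and KSS1 on 7, and the Kir2.1 mean was the higher one for 5 and the lower one for 3. Their differences ran from -0.23 to 0.16. FUS3 (YBL016W), the kinase at the end of the mating cascade, stood at -0.05, 0.08, 0.14 and -0.51 in the Kir2.1 arrays, against 0.17, 0.18, 0.18 and 0.06 in the controls. Kir2.1 replicate 4 alone stood far below the rest, and the difference was -0.23 (SE 0.13, limma adjusted p = 0.689) with it and -0.09 without it. STE20 (YHL007C), the kinase that starts the cascade, stood at -0.65, -0.31, -0.54 and -0.59 in the Kir2.1 arrays, against -0.45, -0.40, -0.28 and -0.38 in the controls. Its groups overlapped through Kir2.1 replicate 2 (difference -0.14, SE 0.08, limma adjusted p = 0.689), and the difference was -0.21 without that array and -0.27 with no centring. STE50 (YCL032W), an adaptor of the kinase Ste11, stood at -1.14, -1.39, -1.42 and -1.09 in the Kir2.1 arrays and at -1.33, -1.41, -1.47 and -1.46 in the controls. Its difference was 0.16 (SE 0.09, limma adjusted p = 0.683), 0.10 without Kir2.1 replicate 4 and 0.03 with no centring. The scaffold gene STE5 ranged from 0.50 to 0.95 in the Kir2.1 arrays and from 0.57 to 0.83 in the controls. STE11, the next kinase in the cascade, ranged from -1.46 to -1.05 in the Kir2.1 arrays and from -1.35 to -1.07 in the controls. STE7, the kinase after it, ranged from -1.58 to -1.38 in the Kir2.1 arrays and from -1.58 to -1.54 in the controls. KSS1, a kinase of the filamentous branch that can stand in for Fus3, spanned 0.13 over the 8 arrays. MSG5, a phosphatase that acts on Fus3, ranged from -0.07 to 0.20 in the Kir2.1 arrays and from -0.07 to 0.13 in the controls.

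The Kir2.1 mean was below the control mean for all 5 genes of transcription factors and their inhibitors, and for 41.3% of all genes. None of the 5 passed, and DIG2 among them was dim. STE12 (YHR084W) stood at -1.19, -0.55, -1.09 and -1.12 in the Kir2.1 arrays, against -0.82, -0.53, -0.47 and -0.64 in the controls. Kir2.1 replicates 1, 3 and 4 lay below all 4 controls, while Kir2.1 replicate 2 lay among the controls. The difference was -0.37 (SE 0.15, unadjusted p = 0.0337, limma adjusted p = 0.568) and ran from -0.52 to -0.31 over the single omissions, with the larger value when Kir2.1 replicate 2 was left out. Its unadjusted limma p stayed under 0.05 only without Kir2.1 replicate 2 (0.00051) or vector control replicate 1 (0.0226). It reached 0.0896 without Kir2.1 replicate 1. DIG1 (YPL049C), an inhibitor of Ste12, stood at -0.42, -0.07, -0.36 and -0.26 in the Kir2.1 arrays, against -0.03, 0.11, 0.14 and 0.01 in the controls. All 4 Kir2.1 values lay below all 4 control values. The difference of -0.34 (SE 0.09, limma unadjusted p = 0.0041, adjusted p = 0.551) had the smallest p of the 40, and its difference ran from -0.41 to -0.29 over the single omissions. DIG2, the related inhibitor, lay between -1.97 and -1.82 in the Kir2.1 arrays and between -1.95 and -1.85 in the controls, above the background on 1 array. MCM1, a factor that acts with alpha1 and with Ste12, ranged from 0.57 to 0.80 in the Kir2.1 arrays and from 0.69 to 0.89 in the controls. KAR4, a factor for genes of nuclear fusion, ranged from -1.47 to -1.29 in the Kir2.1 arrays and from -1.35 to -1.21 in the controls. RNA was taken from whole cultures, so less of a transcript in each cell and fewer cells that make it cannot be told apart.

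**Figure D3:**
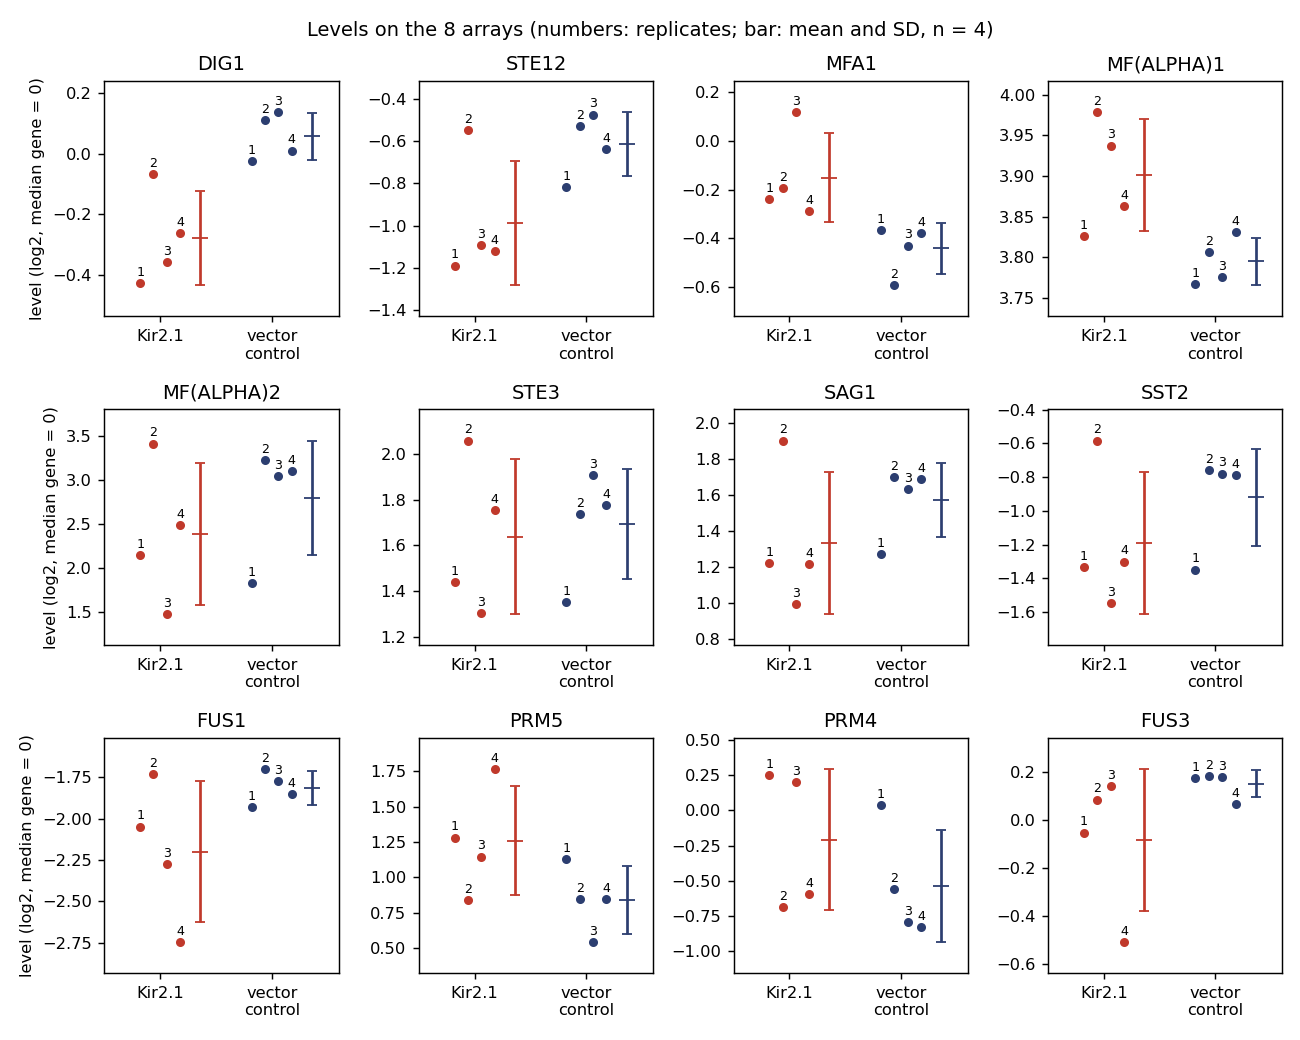
Level relative to the median gene (log2, vertical axis, a different scale in each panel) of 12 genes on the 4 Kir2.1 arrays (left) and the 4 vector control arrays (right), with replicate numbers and the mean and SD (n = 4) beside them. The groups do not overlap for DIG1 and MFA1, while for MF(ALPHA)2, STE3, SAG1 and SST2 vector control replicate 1 lies with the low Kir2.1 arrays and Kir2.1 replicate 2 lies highest of all.

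The means of the target genes differed in both directions. Of 11 arrest and fusion genes, the Kir2.1 mean was the higher one for 4 and the lower one for 7, and 5 lay within the background on all 8. FAR1 (YJL157C), which arrests the cell cycle, stood at -0.21, 0.39, 0.20 and -0.04 in the Kir2.1 arrays and at 0.11, 0.28, 0.40 and 0.32 in the controls. FUS1 (YCL027W), needed for fusion of the cells, stood at -2.05, -1.73, -2.28 and -2.75 in the Kir2.1 arrays, all within the background, against -1.93, -1.70, -1.77 and -1.85 in the controls, of which 2 were above it. No fold is given for FUS1. PRM5 (YIL117C), a membrane protein gene that pheromone and cell wall stress both induce, stood at 1.28, 0.84, 1.15 and 1.77 in the Kir2.1 arrays, against 1.13, 0.85, 0.54 and 0.85 in the controls. Kir2.1 replicate 4 was the highest array for PRM5, and the difference of 0.42 (SE 0.20, limma adjusted p = 0.617) was 0.25 without it. The PRM5 difference was 0.56 without Kir2.1 replicate 2. PRM4 (YPL156C), another gene raised by pheromone, stood at 0.25, -0.68, 0.20 and -0.59 in the Kir2.1 arrays and at 0.03, -0.56, -0.79 and -0.83 in the controls. The PRM4 difference, named after its values were seen, was 0.33 (SE 0.27, limma adjusted p = 0.723). It was 0.52 without vector control replicate 1, 0.18 without Kir2.1 replicate 1, 0.19 without Kir2.1 replicate 3 and 0.20 with no centring. Its 3 highest arrays, Kir2.1 replicates 1 and 3 and vector control replicate 1, were the 3 lowest of MF(ALPHA)2.

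FIG2, a wall protein of mating cells, ranged from -0.86 to -0.60 in the Kir2.1 arrays and from -0.83 to -0.64 in the controls. PRM3, needed for nuclear fusion, ranged from -0.70 to -0.61 in the Kir2.1 arrays and from -0.78 to -0.47 in the controls. Within the background on all 8 arrays were FUS2, PRM1, PRM2, PRM6 and FIG1. PRM1 acts in fusion of the cell membranes and FIG1 in calcium uptake during mating. PRM6, also called KCH2, acts in potassium uptake during the pheromone response. PRM6 stood at -4.17 to -3.67 in the Kir2.1 arrays and at -3.95 to -3.81 in the controls, and FIG1 at -3.87 to -2.96 in the Kir2.1 arrays and at -3.39 to -3.12 in the controls. In all, 26 of the 40 exceeded the background on all 8 arrays, 10 on none and 4 on some, and no fold is given for the 10, which are still counted among the higher and lower means.

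The expressed genes also varied between arrays of 1 group. Over the 8 arrays, the 26 genes above the background on all had a median span of 0.49, against 0.39 for the 4533 genes of all kinds above it. Spans over 1, a 2-fold range, were found for 3 of the 26 (11.5%), MF(ALPHA)2, PRM5 and PRM4, and for 5.43% of the 4533. Kir2.1 replicates 1 and 3 and vector control replicate 1 were the 3 lowest arrays for 4 of the 40 genes, MF(ALPHA)2, STE3, STE4 and SST2, against 18.4% of all genes. They were the 3 highest arrays for 12 of the 40, against 16.7% of all genes, but 8 of those 12 lay within the background on 1 or more arrays. Among the 26 they were the 3 lowest for 4 and the 3 highest for 4, against 20.7% and 15.3% of the 4533, so the ordering was common among all genes. The iron regulon gene FIT2, a wall mannoprotein gene named after its values were seen, stood at 4.34 and 4.37 in Kir2.1 replicates 1 and 3 and at 3.95 in vector control replicate 1, and at -0.67 to 0.0097 on the other 5 arrays. Its part in the spread of the pheromone genes was not tested.

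**Figure D4:**
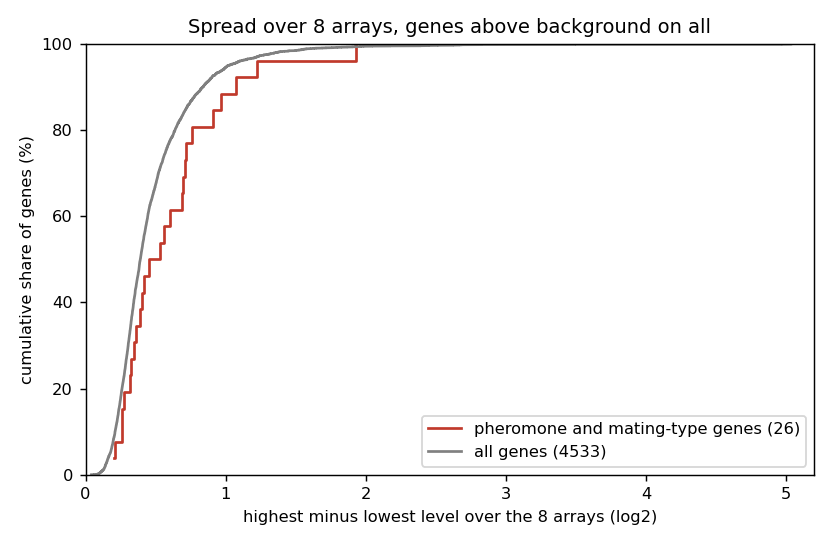
Cumulative share of genes (%, vertical axis) by the span between the highest and the lowest of the 8 arrays (log2, horizontal axis), for the 26 pheromone and mating-type genes (red) and all 4533 genes (grey) above the background on all arrays. The median span is 0.49 for the 26 genes and 0.39 for all genes.

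The count of 0 held when any single array was left out. It did not hold when 2 arrays were left out together or when all 8 arrays were weighted. Without Kir2.1 replicate 2 and vector control replicate 1, limma called 5 of the 40 genes lower, against 3.34% of all genes, and 0 of the 40 higher, against 5.98% of all genes. The 5 were STE12 (-0.59, adjusted p = 0.0185), DIG1 (-0.43, 0.0257), SST2 (-0.62, 0.0210), SAG1 (-0.53, 0.0254) and MF(ALPHA)2 (-1.08, 0.0424). The groups of 16 of the 40 genes did not overlap there, against 37.7% of all genes. Those 2 arrays were picked from their values, so these calls are a description and not a test. With array weights, 15 of the 40 genes were called, against 31.8% of all genes. They were 6 higher (18.7% of all genes) and 9 lower (13.2%), and 12 of the 15 were above the background on all 8 arrays. STE12 (-0.54, adjusted p = 0.0192) and DIG1 (-0.43, 0.0192) were among the 9, and MFA1 (0.31, 0.0365) and PRM4 (0.80, 0.0193) among the 6. The weights were estimated from these same arrays. They were lowest for Kir2.1 replicate 2 (0.23), Kir2.1 replicate 4 (0.27) and vector control replicate 1 (0.37). Within Kir2.1, replicates 1 (1.84) and 3 (0.86) weighed most. Kir2.1 replicate 2 and vector control replicate 1 were also the arrays of the joint omission. The weighted calls are thus also a description and not a separate test.

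Further genes of mating were read from 5 lists, and 0 of their 57 measured members were called by limma. All 10 genes for processing of the pheromones, such as KEX2, which cuts the alpha-factor precursor, and STE14, which methylates a-factor, lay above the background on all 8 arrays. Their differences ran from -0.11 to 0.12, and 0 had an unadjusted p under 0.05. Of 16 other pheromone targets, 3 had an unadjusted p under 0.05, all with higher means, where 6.37% of all genes stood. SCW10, a wall glucanase-like gene, stood at 3.35, 3.38, 3.31 and 3.32 in the Kir2.1 arrays, against 3.14, 3.19, 3.14 and 3.19 in the controls (difference 0.17, SE 0.05, limma adjusted p = 0.551). Its groups did not overlap. SVS1 differed by 0.23 (SE 0.08, adjusted p = 0.551) and ERG24, an enzyme of sterol synthesis, by 0.16 (SE 0.06, adjusted p = 0.568). With no centring the differences were 0.05 for SCW10, 0.10 for SVS1 and 0.03 for ERG24. Of 12 genes for polarity and scaffolds, CDC24 had an unadjusted p under 0.05, on the lower side with 1.98% of all genes. CDC24, which activates the polarity switch Cdc42, stood at -0.51, -0.42, -0.26 and -0.66 in the Kir2.1 arrays, against -0.08, -0.11, -0.29 and -0.29 in the controls (difference -0.27, SE 0.10, adjusted p = 0.551). The CDC24 difference was -0.20 without Kir2.1 replicate 4 and -0.34 without Kir2.1 replicate 3. Of 11 measured genes of the mating-type locus and its regulators, HO, the endonuclease gene for mating-type switching, had an unadjusted p of 0.0497, also on the lower side. HO stood at -0.22, 0.11, -0.29 and -0.88 in the Kir2.1 arrays, against -0.05, 0.22, 0.06 and 0.20 in the controls (difference -0.43, SE 0.19, adjusted p = 0.598). Kir2.1 replicate 4 was the lowest array for HO, and the difference was -0.24 without it. Of 8 genes of the filamentous branch, which shares kinases with mating, 0 had an unadjusted p under 0.05.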

How the data were processed

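Per the labels' protocols, RNA was taken with hot phenol, cleaned on a column and made into biotin-labelled cRNA with an Affymetrix kit. The deposited values are a standardized score per probe set, with mean 0 and SD 1 on each array and a linear shape. How the authors made the scores is not given in the sources used here. Log2 levels were rebuilt from the deposited scores as the distance to a zero placed 0.005 array SD below the lowest score of each array, and centred on the median gene. Before centring the median gene lay at -0.13 (Kir2.1 minus control). The platform annotation named 1 S. cerevisiae gene for 5498 of 10715 probe sets, several genes for 1 and no entry for 3470. The brightest probe set stood for each of 5449 genes, with symbols from RefSeq R64. The group difference was fitted over all genes in limma 3.58.1 under R 4.3.3 (two-sided, group as the only term, Benjamini-Hochberg). The fit was first tried on simulated data with independent noise for each gene. That trial checks the code only, as it leaves out the structure shared between these arrays. Replicates are described as biological. The number of arrays limits the precision (median SE 0.09).

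The members, lists and alternatives were chosen with earlier results of these data known. Differences are printed for the 10 members with the smallest p, where at least 4 arrays put them above the background (ASG7 and FUS1 did not), for 4 members named after their values were seen, and for genes of the further lists with an unadjusted p under 0.05. The deposited table held no log2 values, so this rebuilt scale was needed. No probe sequences were used here.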

Additional observations from a re-analysis of the deposited data

Results flagged for a closer look

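In each group of 4 arrays, the highest and lowest value of each of the 40 genes was set against the other 3 by Dixon's test. Of the 80 groups tested, 7 held an array far from the others, where chance flags about 1 in 20. Vector control replicate 1 was that array for 4 of the 7. It was the lowest control for MF(ALPHA)2, at 1.83 against 3.04 for the next control, for SAG1, at 1.27 against 1.63, and for SST2, at -1.35 against -0.79. It was the highest control for STE11, at -1.07 against -1.32. Kir2.1 replicate 2 was the highest Kir2.1 array for STE12, at -0.55 against -1.09. Vector control replicate 4 was the lowest control for FUS3, at 0.065 against 0.17. Vector control replicate 2 was the highest control for AGA2, at -2.75 against -3.51, all within the background.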

How the results depend on the processing

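Across 21 alternatives, no gene of the 40 was called in 19, and the exceptions were array weights (15 of the 40, 1735 of all genes, member median 0.028) and the joint omission of vector control replicate 1 and Kir2.1 replicate 2 (5 of the 40, 508 of all genes, 16 of the 40 with groups that did not overlap, against 37.7% of all genes). On the deposited scores with no log2, 1 gene outside the 40 was called and 5 of the 40 did not overlap, against 9.65% of all genes; the difference of MF(ALPHA)1 was -0.067 array SD there, and the member median, in another unit, is not given. With no centring 6 did not overlap, against 12.3% of all genes, the member median was -0.16 and that of all genes -0.10, and MF(ALPHA)1 stood at -0.023. After quantile normalization MF(ALPHA)1 stood at -0.030. The cause of these reversals was not tested. Over the 8 single omissions, 0 genes were called, the member median ran from -0.04 to 0.0026, and 3 to 11 of the 40 did not overlap, with 11 without Kir2.1 replicate 2 (15.4% of all genes) and 6 without vector control replicate 4 (8.79%). With the replicate number as a block, 0 genes were called, as without it. At an unadjusted limma p under 0.05, the block gave 6 of the 40, against 9.63% of all genes. Without the block there were 3 of the 40, against 8.35%. The labels do not say whether the numbers pair the cultures. The deviations of same-numbered arrays from their own group means correlated at 0.81, 0.69, -0.66 and 0.39 across genes. These signs are mixed and cannot settle whether cultures were paired. Without dim genes the median was -0.04. Signal over background limits what can be said of the 10 genes within the background on all arrays.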
